A study of Homo sapiens with 18 samples.

Results

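Interferon-stimulated genes are the antiviral and regulatory genes that a cell transcribes after sensing interferon, and 39 of them were followed here across 3 lung cancer cell lines. They were taken as a list of symbols and were looked up among the gene rows of the deposited tables. The list was chosen with earlier results of these data known. Of the 39 genes, 37 had a gene row in at least 1 line, among 20374 genes with a row in at least 1 line, and 30 had one in every line. IFI27 and XAF1 had no gene row, so their expression was not analysed here, although their promoter windows were searched. The cells were H460 treated with CCS1477, H2023 treated with CCS1477, ABC-1 treated with CCS1477, and the same 3 lines given the solvent DMSO, all for 24 h and with 3 libraries per group, 18 in all. Sample descriptions give the dose as 5 µM, whereas the series text gives 5 mM. Per the labels, H460 is a large cell, H2023 a squamous cell and ABC-1 an adenocarcinoma line of the lung, and H460 and H2023 are NRF2-activated while ABC-1 is wildtype. NRF2 is the transcription factor of the oxidative stress response, and CCS1477 is an inhibitor of the bromodomains of the histone acetyltransferases EP300 and CREB-binding protein. No group was labelled as treated with interferon, so the untreated level is the basal one. Each line is 1 established culture, and the labels do not state whether the 3 libraries of a group stem from separate cultures. The p-values therefore speak of library-to-library spread alone, part of which may be technical.

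Type I interferons bind a receptor at the cell surface whose kinases, JAK1 and TYK2, phosphorylate STAT2 and other factors of its family. A complex that holds STAT2 and IRF9 binds the interferon-stimulated response element (ISRE) in the promoters of many of these genes, whereas interferon gamma acts through another complex at the gamma-activated site (GAS). The products sense viral RNA or DNA (DDX58, also called RIG-I, IFIH1 and IFI16), degrade or trap viral RNA (the OAS and IFIT families), block entry or release of viruses (the IFITM proteins and BST2), attach the ubiquitin-like protein ISG15 to other proteins (HERC5, TRIM25), or feed back on the pathway itself (STAT2, IRF1, IRF7, IRF9, USP18). Cancer cells often transcribe a subset of these genes without added interferon.

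Promoter windows of 8 members are printed first, because these members moved together across the lines: HERC5, IFI6, TRIM21 and IFIT5 were higher in CCS1477 libraries of every line, and OAS3, IFITM3, PARP14 and DTX3L were lower in every line. Each window runs from 250 bases before to 50 after a gene start in RefSeq (GRCh38.p14) and is written in the direction of the gene. Capitals mark each match to the ISRE core, searched on both strands as 2 copies of GAAA with any 2 bases between them. On the opposite strand the copies read TTTC, and longer capitals are overlapping matches. The windows lie at chr4:88456869-88457168 (plus strand), chr1:27672143-27672442 (minus strand), chr11:4393653-4393952 (minus strand), chr10:89414318-89414617 (plus strand), chr12:112938224-112938523 (plus strand), chr11:320811-321110 (minus strand), chr3:122680589-122680888 (plus strand) and chr3:122564088-122564387 (plus strand).
HERC5: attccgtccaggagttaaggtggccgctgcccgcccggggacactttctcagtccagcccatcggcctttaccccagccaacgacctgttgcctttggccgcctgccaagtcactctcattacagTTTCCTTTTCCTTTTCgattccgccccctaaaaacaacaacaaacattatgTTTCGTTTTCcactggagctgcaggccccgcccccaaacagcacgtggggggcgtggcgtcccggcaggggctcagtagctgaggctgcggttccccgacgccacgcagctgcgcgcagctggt
IFI6: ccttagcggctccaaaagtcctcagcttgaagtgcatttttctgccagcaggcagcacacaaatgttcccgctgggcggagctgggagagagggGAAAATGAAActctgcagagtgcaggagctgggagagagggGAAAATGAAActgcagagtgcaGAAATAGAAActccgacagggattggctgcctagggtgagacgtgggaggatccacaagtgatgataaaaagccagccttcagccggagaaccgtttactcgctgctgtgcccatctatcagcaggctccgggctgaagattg
TRIM21: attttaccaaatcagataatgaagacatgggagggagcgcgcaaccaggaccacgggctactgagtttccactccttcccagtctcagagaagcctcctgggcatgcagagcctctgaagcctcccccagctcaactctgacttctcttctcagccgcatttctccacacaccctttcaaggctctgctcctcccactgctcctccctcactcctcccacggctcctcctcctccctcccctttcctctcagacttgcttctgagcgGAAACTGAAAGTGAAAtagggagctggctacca
IFIT5: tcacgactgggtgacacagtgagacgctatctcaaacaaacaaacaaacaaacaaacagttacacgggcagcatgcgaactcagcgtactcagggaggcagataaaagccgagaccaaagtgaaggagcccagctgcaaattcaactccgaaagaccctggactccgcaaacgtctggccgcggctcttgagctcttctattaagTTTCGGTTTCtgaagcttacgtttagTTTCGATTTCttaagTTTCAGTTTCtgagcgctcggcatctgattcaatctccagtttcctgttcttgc
OAS3: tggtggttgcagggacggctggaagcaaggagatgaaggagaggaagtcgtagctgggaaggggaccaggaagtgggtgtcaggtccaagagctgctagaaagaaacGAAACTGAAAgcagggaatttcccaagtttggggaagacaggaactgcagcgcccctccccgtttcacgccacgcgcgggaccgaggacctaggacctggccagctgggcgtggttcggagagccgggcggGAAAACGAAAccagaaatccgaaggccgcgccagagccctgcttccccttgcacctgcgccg
IFITM3: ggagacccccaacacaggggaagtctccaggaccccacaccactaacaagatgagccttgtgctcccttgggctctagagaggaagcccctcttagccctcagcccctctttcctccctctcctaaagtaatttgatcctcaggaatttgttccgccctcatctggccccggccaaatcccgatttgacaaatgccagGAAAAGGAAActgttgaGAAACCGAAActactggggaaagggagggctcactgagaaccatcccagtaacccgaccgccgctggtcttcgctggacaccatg
PARP14: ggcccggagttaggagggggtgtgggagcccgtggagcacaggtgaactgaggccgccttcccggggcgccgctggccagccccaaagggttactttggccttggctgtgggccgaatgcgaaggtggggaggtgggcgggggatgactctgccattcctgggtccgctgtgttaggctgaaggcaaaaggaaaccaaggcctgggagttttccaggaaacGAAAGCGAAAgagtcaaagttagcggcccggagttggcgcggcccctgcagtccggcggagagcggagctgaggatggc
DTX3L: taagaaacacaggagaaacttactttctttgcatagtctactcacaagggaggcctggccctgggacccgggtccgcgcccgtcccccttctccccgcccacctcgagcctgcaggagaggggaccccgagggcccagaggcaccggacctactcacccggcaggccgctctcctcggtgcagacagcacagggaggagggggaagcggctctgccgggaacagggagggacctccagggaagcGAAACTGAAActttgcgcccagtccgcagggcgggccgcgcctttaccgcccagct

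An ISRE core was in a window of 21 of the 33 members that had a promoter entry (63.6%), against 4.38% of the 27305 genes in the same table. A GAS motif, TTCNNNGAA on either strand, was in 10 of the 33 (30.3%), against 9.38% of all genes. Symbols without an entry were IFIT2, IFITM2, IRF7, OAS2, OASL and USP18. The 33 include IFI27, which held both motifs, and XAF1, which held neither, though neither gene had a gene row. Both directions of change held the ISRE core: it was in all 4 matched members that were higher in every line and in all 6 that were lower in every line. Of the 5 members called in opposite directions in different lines (IFI16, IFIT1, STAT2, HERC6 and SP100) it was in 1, IFIT1. Of 11757 genes tested in every line, 12.2% had opposite calls in at least 2 lines, while IFI16 was tested in 2 lines only. In H2023 IFI16 reached 1 CPM only in CCS1477 libraries, where it was higher. The calls of IFI16 in H2023 and of IFIT1 and SP100 in ABC-1 ended when certain single libraries were left out. HERC5, IFI6, IFIT5 and IFIH1 each held 3 matches, while PARP14 held 1, at 29 to 20 bases before the start. PARP9 and DTX3L are transcribed away from each other, and their windows overlap and contain the same single match. A match describes the letters of the window and is not evidence that a factor binds there.

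**Figure D1:**
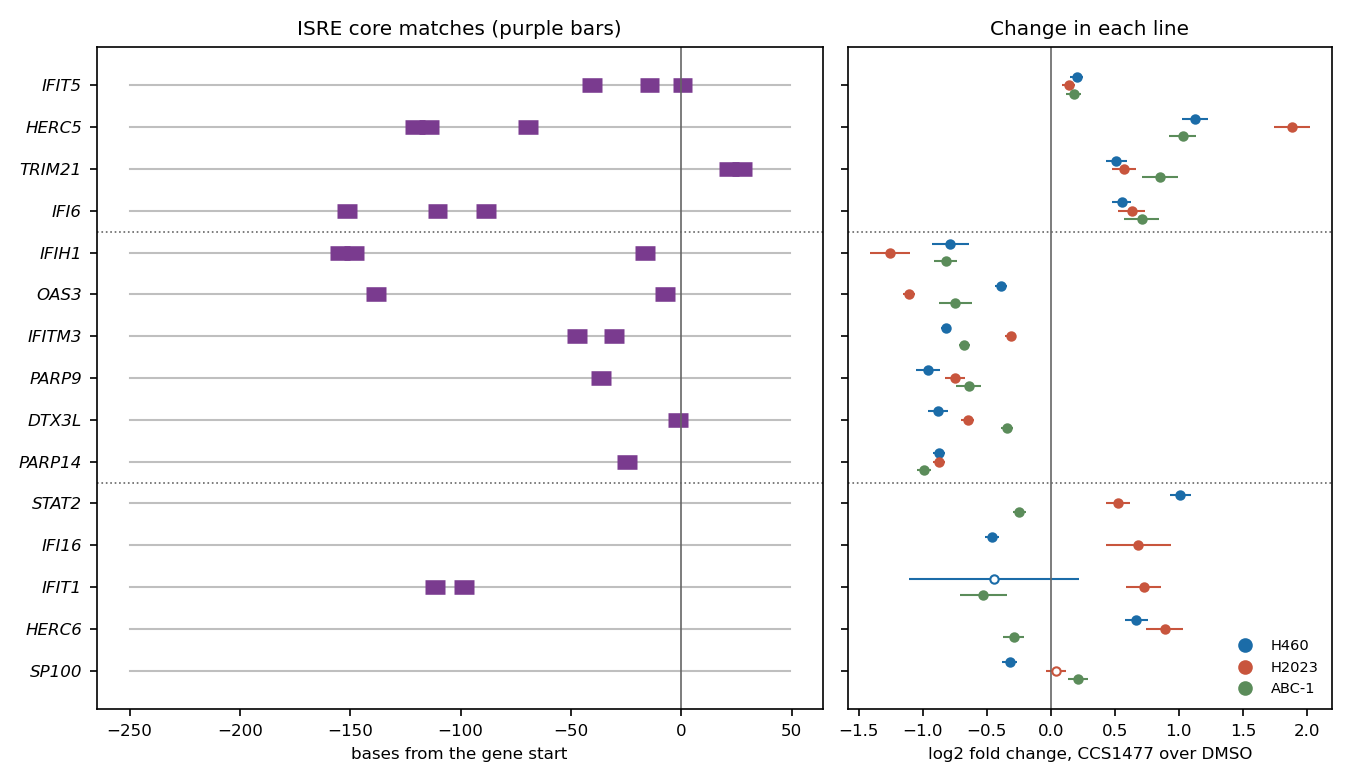
Left, matches to the ISRE core (purple bars) along the promoter window of members called in the same direction in all 3 lines or in opposite directions, in bases from the gene start; where a gene has several windows, the one with most matches is drawn. Right, log2 fold change of CCS1477 over DMSO (points, 3 libraries per group; bars, SE; filled, adjusted p under 0.05). Dotted lines separate the 4 members higher in every line, the 6 lower in every line and the 5 with opposite calls; the 10 members above the second dotted line all hold a match.

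The libraries held 26652298 to 33568180 reads in H460, 15352631 to 18261159 in H2023 and 14483979 to 17483292 in ABC-1, and levels are given as reads per 1000000 reads of a library (CPM). At 1 CPM the counting error of a single library was 17.3 to 26.3%, so members near that level are imprecise. Replicate 1 of the CCS1477 libraries of H460 stood apart from the others: mitochondrial reads were 0.795% of it, against 1.77 to 2.06% of the other 5 libraries of that line. Epithelial markers summed to at least 2470 CPM in every library, whereas leukocyte markers summed to at most 30.8 CPM and endothelial markers to at most 3.12 CPM. In H460 the epithelial sum came mostly from KRT8, KRT18 and KRT19. CDH1 had no row there, and EPCAM averaged 0.443 CPM with CCS1477 and 0.659 CPM with DMSO. KRT7 in H460 averaged 0.797 CPM with CCS1477 and had 19.7, 1.24 and 1.59 CPM with DMSO. Of 4 fibroblast markers, those with a row summed to 4.43 to 4.95 CPM in CCS1477 libraries of H460, against 9.66 to 11 CPM in its DMSO libraries, and DCN and COL1A2 had no row. In ABC-1 only COL1A1 had a row, with 22.6 to 23.6 CPM in CCS1477 libraries, against 6.84 to 8.03 CPM in DMSO libraries; the part of these shifts in the results was not tested.

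In the untreated cells most members were present at low to moderate levels. Mean DMSO levels reached 1 CPM for 33 members of the list in H460, for 34 in H2023 and for 29 in ABC-1. In RPKM, that is CPM per kilobase of exons, IFITM3, which restricts entry of enveloped viruses, was the most abundant member in each line, with 102 ± 1.68 RPKM in H460, 69.9 ± 2.19 RPKM in H2023 and 59.5 ± 2.496 RPKM in ABC-1 (SD, n = 3 each). Next in H460 came OAS1, a synthetase of short chains of adenylate that act as a second messenger, at 21.5 ± 0.734 RPKM. Next in H2023 came DTX3L, a ubiquitin ligase, at 14.7 ± 0.161 RPKM, and in ABC-1 IFITM1 at 18.8 ± 0.797 RPKM. Each table was scaled separately, so levels of the lines are set side by side with no test between them.

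The lines differed in which members they held. IFI16, a DNA sensor, stood at 56.99, 55.3 and 53.5 CPM in H460 and at 0.561, 0.548 and 0.845 CPM in H2023. OAS1 had 106, 103 and 110.1 CPM in H460, 23.1, 26.4 and 25.3 CPM in H2023 and 0.382, 0.447 and 0.829 CPM in ABC-1. A transcript row of OAS1 held a further 8.66, 8.82 and 9.67 CPM in the DMSO libraries of ABC-1, so its gene row understates that line. That row held 7.89, 8.17 and 6.39 CPM in the CCS1477 libraries. STAT2, a factor of the type I and type III interferon responses, ran the other way, with 94.7, 107 and 100.5 CPM in ABC-1, 21.1, 27.2 and 26.8 CPM in H2023 and 7.43, 7.59 and 8.24 CPM in H460. Its partner IRF9 had 10.04, 9.14 and 7.28 CPM in H2023, 1.501, 0.949 and 1.42 CPM in H460 and 0.191, 0.0639 and 0.276 CPM in ABC-1. IFITM1 had 20.4, 19.4 and 21.1 CPM in ABC-1 and 0.9, 0.183 and 0.141 CPM in H460. Among the 30 members with a row in every line, H460 held the highest mean for 14, H2023 for 10 and ABC-1 for 6. For 20 of the 30 the libraries of neighbouring lines in that order did not overlap, against 56.5% of 14230 genes with a row in every line. HERC5 was the member whose neighbours overlapped throughout, at 5.54 ± 0.367 CPM in ABC-1, 4.501 ± 0.908 CPM in H2023 and 4.39 ± 0.304 CPM in H460.

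**Figure D2:**
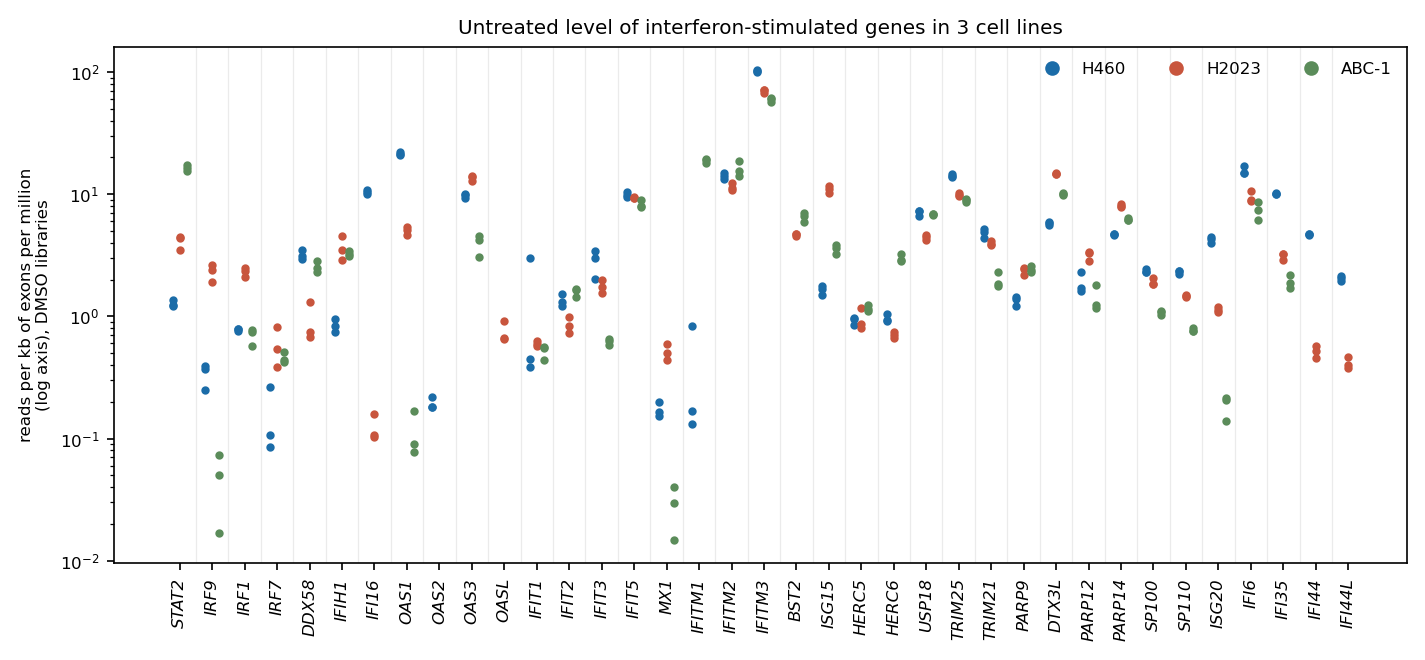
Level of each member in the 9 DMSO libraries, in RPKM on a log axis; each point is 1 library, colours mark the lines, and libraries without a read are not drawn. IFITM3 stands above the other members in all 3 lines, and OAS1, IFI16, STAT2 and IRF9 are spread widely between lines.

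CCS1477 shifted members in both directions in every line. A gene was tested in a line where 3 or more of its 6 libraries reached 1 CPM, on the deposited log2 scale with limma-trend. A change was called at a Benjamini-Hochberg adjusted p under 0.05 over all genes tested. That scale adds a constant of 4 to the scaled reads, so a log2 change understates the change of a low gene. Some members reached 1 CPM only in the group where they were higher, so their entry to the test depended on that group. These were IRF7 in H460 and IFI16 in H2023 (CCS1477 libraries), and OAS2 in H460, IFI44L in H2023 and IFIT3 in ABC-1 (DMSO libraries). The counts that follow include them. In H460, 9 of 34 tested members were called higher and 17 lower, where 28.2% of 13516 genes were called higher and 27.9% lower (56.1% either way). In H2023, 13 of 34 were called higher and 13 lower, where 28.6% and 31.9% of 14572 genes were (60.6% either way). In ABC-1, 9 of 29 were called higher and 16 lower, where 33.5% and 32.6% of 13543 genes were (66.1% either way). Tested members had a median log2 change of -0.42 in H460, where all genes tested had 0.00092. The median was 0.08 in H2023, beside -0.0089 over all genes, and -0.42 in ABC-1, beside 0.0139. CPM of the CCS1477 and DMSO libraries did not overlap for 29 members in H460 (65% of all genes), 28 in H2023 (66.3% of all genes) and 25 in ABC-1 (71.8% of all genes). Without the H460 library that stood apart, 8 members were called higher and 18 lower in that line. Fewer cells of a kind and less RNA per cell cannot be told apart in such bulk libraries. Rows were too low to test for IFITM1 in H460, IFI44 in H2023, and MX1, OAS1 and IRF9 in ABC-1. No gene row was analysed for OASL and BST2 in H460, for IFITM1 and OAS2 in H2023, and for IFI16, IFI44, IFI44L, OAS2 and OASL in ABC-1.

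**Figure D3:**
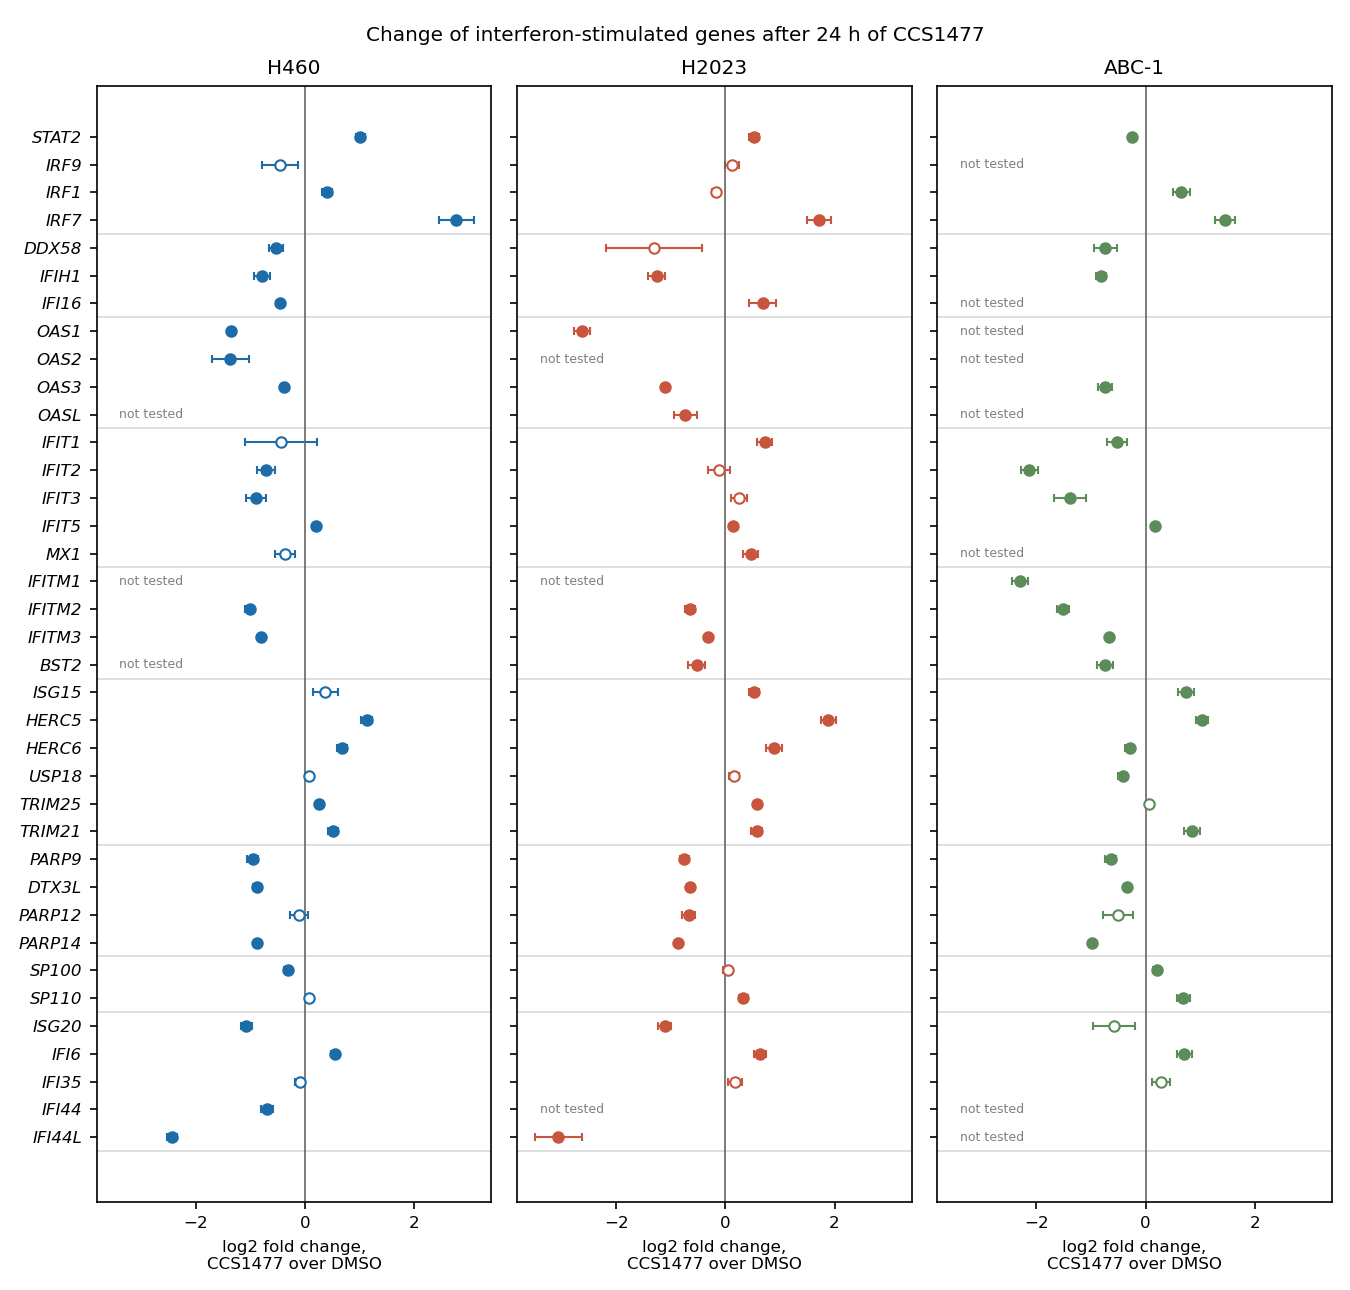
Log2 fold change of CCS1477 over DMSO for the 37 members tested in at least 1 line, 3 libraries per group (bars, SE; filled points, adjusted p under 0.05; open points, not called); grey lines separate role groups. OAS, IFITM, PARP and DTX3L members lie left of 0 wherever they were called, while HERC5, TRIM21, IRF7 and IFI6 lie right of 0 in all 3 panels.

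Called higher in all 3 lines were IFI6, IFIT5, IRF7, HERC5 and TRIM21, and called lower in all 3 were IFITM2, IFITM3, OAS3, IFIH1, PARP9, PARP14 and DTX3L. Of 11757 genes tested in every line, 14.7% were called higher in all 3 and 12.7% lower in all 3. Of the members, 27 were tested in every line. Among those called in all 3 lines, IRF7 was tested in H460 only through its CCS1477 libraries.

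Among the transcription factors, IRF7, which amplifies production of type I interferon, changed most. It was near the limit of detection in untreated H460, where no DMSO library reached 1 CPM. It was therefore tested in H460 only through its CCS1477 libraries. It had 3.66, 3.25 and 3.33 CPM in CCS1477 libraries of H460, against 0.225, 0.694 and 0.283 CPM in its DMSO libraries (log2 change 2.77, SE 0.318, adjusted p 0.000174). In H2023 it had 5.21, 5.897 and 5.64 CPM with CCS1477 and 1.01, 1.42 and 2.15 CPM with DMSO (log2 change 1.72, SE 0.225, adjusted p 6.17e-05). In ABC-1 the values were 3.55, 4.44 and 3.63 CPM with CCS1477 and 1.15, 1.34 and 1.105 CPM with DMSO (log2 change 1.45, SE 0.181, adjusted p 2.90e-05). All 9 CCS1477 libraries lay above every DMSO library of their own line.

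STAT2 moved in opposite directions. In H460 it had 16.2, 15.8 and 17.7 CPM with CCS1477 and 7.43, 7.59 and 8.24 CPM with DMSO (log2 change 1.01, SE 0.0812, adjusted p 2.81e-05), while H2023 had 38.4, 36.4 and 36.9 CPM with CCS1477 and 21.1, 27.2 and 26.8 CPM with DMSO (log2 change 0.52, SE 0.0917, adjusted p 0.000514). In ABC-1, where its untreated level was highest, it had 90.03, 86.99 and 88.1 CPM with CCS1477 and 94.7, 107 and 100.5 CPM with DMSO (log2 change -0.24, SE 0.0537, adjusted p 0.00192). The groups did not overlap in any line. The fall in ABC-1 was small next to the rise in H460, and the CPM of STAT2 stood highest in ABC-1 with CCS1477 and with DMSO. IRF1, a factor that also acts at ISRE sequences, averaged 8.48 ± 0.558 CPM with CCS1477 and 6.08 ± 0.171 CPM with DMSO in H460 (log2 change 0.40, SE 0.0881, adjusted p 0.00526). Its ABC-1 averages were 9.09 ± 1.12 CPM with CCS1477 and 5.45 ± 0.846 CPM with DMSO (log2 change 0.66, SE 0.149, adjusted p 0.00231). In H2023 it was not called, at 16.6 ± 0.637 CPM with CCS1477 and 18.1 ± 1.47 CPM with DMSO. IRF9 was not called in H460 (log2 change -0.47, SE 0.33, adjusted p 0.26) or H2023 (log2 change 0.12, SE 0.124, adjusted p 0.409).

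Of the sensors, IFIH1, also called MDA5, which binds long double-stranded RNA, fell in every line. It had 6.904, 7.37 and 9.15 CPM with CCS1477 and 23.1, 17.7 and 14.7 CPM with DMSO in H2023 (log2 change -1.25, SE 0.157, adjusted p 4.39e-05). In ABC-1 the values were 9.49, 9.36 and 10.3 CPM with CCS1477 and 16.6, 17.5 and 15.9 CPM with DMSO (log2 change -0.82, SE 0.0904, adjusted p 1.04e-05). In H460, where it was lowest, they were 2.26, 2.75 and 2.67 CPM with CCS1477 and 3.79, 4.82 and 4.28 CPM with DMSO (log2 change -0.78, SE 0.144, adjusted p 0.00208). No CCS1477 library reached the lowest DMSO library of its line. In H2023 a transcript row of IFIH1 held a further 9.97, 8.97 and 7.34 CPM with CCS1477 and 18.95, 21.03 and 24.18 CPM with DMSO, so the gene row is less than the whole level there. Gene row and transcript row were both lower with CCS1477. DDX58, the sensor of RNA with a triphosphate end, was called lower in H460 (log2 change -0.53, SE 0.127, adjusted p 0.00776) and in ABC-1 (log2 change -0.74, SE 0.214, adjusted p 0.0104), where its groups overlapped, at 4.69, 6.57 and 10.1 CPM with CCS1477 and 10.8, 10.03 and 12.4 CPM with DMSO. In H2023 DDX58 was listed at 0 in CCS1477 replicate 3, beside 3.84 and 4.54 CPM in the other two and 5.72, 2.96 and 3.25 CPM with DMSO, and was not called. IFI16 fell in H460, at 40.04, 42.5 and 44.5 CPM with CCS1477 and 56.99, 55.3 and 53.5 CPM with DMSO (log2 change -0.46, SE 0.0539, adjusted p 0.000201). In H2023, at levels near 1 CPM, IFI16 was called higher (log2 change 0.68, SE 0.253, adjusted p 0.0368). No DMSO library of IFI16 in H2023 reached 1 CPM, so it was tested there only through its CCS1477 libraries. With any of these left out it was not tested. That call ended without DMSO replicate 1 or 2, and its adjusted p ran from 0.0223 to 0.0946 over the alternatives in which it was tested.

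OAS members were called lower wherever they were tested, in 3 of 3 in H460, 3 of 3 in H2023 and 1 of 1 in ABC-1, where 27.9%, 31.9% and 32.6% of all genes tested in these lines were called lower. In H460 OAS2 was tested only through its DMSO libraries, where it was higher, so its call there is no support for that pattern. They lie on chromosome 12 (GRCh38: OAS1 at chr12:112906777-112933222, OAS3 at chr12:112938352-112973249, OAS2 at chr12:112978395-113011723 and OASL at chr12:121019111-121039242). OAS1 had 43.8, 42.8 and 43.9 CPM with CCS1477 and 106, 103 and 110.1 CPM with DMSO in H460 (log2 change -1.36, SE 0.0427, adjusted p 3.23e-07). In H2023 it had 4.62, 4.48 and 3.03 CPM with CCS1477 and 23.1, 26.4 and 25.3 CPM with DMSO (log2 change -2.62, SE 0.145, adjusted p 9.62e-08). The OAS1 groups were far apart in both lines. In ABC-1 the gene row of OAS1 was too low to test. Its transcript row there held 7.89, 8.17 and 6.39 CPM with CCS1477 and 8.66, 8.82 and 9.67 CPM with DMSO. OAS3, which makes the same messenger and is the long member of the family, had 64.3, 67.4 and 61.4 CPM with CCS1477 and 82.1, 81.6 and 76.96 CPM with DMSO in H460 (log2 change -0.39, SE 0.0487, adjusted p 0.000273). In H2023 it had 53.7, 53.9 and 53.2 CPM with CCS1477 and 105, 115 and 115 CPM with DMSO (log2 change -1.11, SE 0.0483, adjusted p 1.71e-08). ABC-1 libraries had 18.99, 21.8 and 18.6 CPM with CCS1477 and 25.4, 37.3 and 34.5 CPM with DMSO (log2 change -0.75, SE 0.129, adjusted p 0.00036). OAS2, near the detection limit in H460, was also called lower, at 0.44 ± 0.22 CPM with CCS1477 and 1.21 ± 0.145 CPM with DMSO (adjusted p 0.00896 by limma-trend). OASL was called lower in H2023, at 1.53 ± 0.258 CPM with CCS1477 and 2.62 ± 0.53 CPM with DMSO (adjusted p 0.0112 by limma-trend). Without DMSO replicate 2 the OASL call ended, with an adjusted p of 0.0532.

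The IFIT genes, whose products bind viral RNA, did not move as a family, although they lie in 1 cluster on chromosome 10 (GRCh38: IFIT2 at chr10:89283694-89309276, IFIT3 at chr10:89327894-89340971, IFIT1 at chr10:89392546-89406486 and IFIT5 at chr10:89414586-89421001). IFIT2 fell in ABC-1, at 1.49, 1.24 and 1.32 CPM with CCS1477 and 6.69, 6.9 and 5.94 CPM with DMSO (log2 change -2.13, SE 0.159, adjusted p 4.18e-07). It also fell in H460, at 3.78, 2.75 and 4.01 CPM with CCS1477 and 6.27, 5.33 and 5.02 CPM with DMSO (log2 change -0.72, SE 0.164, adjusted p 0.00621). In H2023 its groups overlapped and it was not called, at 3.32, 4.18 and 2.55 CPM with CCS1477 and 2.97, 4.05 and 3.44 CPM with DMSO. IFIT3 followed the same pattern, with calls in ABC-1 (log2 change -1.39, SE 0.286, adjusted p 0.00127) and H460 (log2 change -0.90, SE 0.188, adjusted p 0.00413) and none in H2023 (log2 change 0.25, SE 0.139, adjusted p 0.144). In ABC-1 IFIT3 reached 1 CPM only in DMSO libraries, so its entry to the test depended on them. IFIT1 was called higher in H2023, at 5.28, 4.73 and 4.73 CPM with CCS1477 and 2.64, 2.74 and 2.92 CPM with DMSO (log2 change 0.73, SE 0.139, adjusted p 0.000937). It was called lower in ABC-1, at 1.54, 1.54 and 1.88 CPM with CCS1477 and 2.61, 2.04 and 2.56 CPM with DMSO (log2 change -0.53, SE 0.185, adjusted p 0.0265).

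A single library decided IFIT1 in H460. It had 2.65, 2.92 and 3.08 CPM with CCS1477 and 13.9, 1.79 and 2.05 CPM with DMSO, where replicate 1 was far above the other two. With all libraries the log2 change was -0.44 with an adjusted p of 0.597, and without DMSO replicate 1 it was 0.48 with an adjusted p of 0.0431 (limma-trend). That library also had the highest IFIT3, with 9.04, 5.33 and 7.89 CPM, and IFITM1, with 0.9, 0.183 and 0.141 CPM, in the 3 DMSO libraries of H460. IFIT2 and IFI6 were highest there too, whereas MX1, OAS2, DDX58, IFIH1 and IFI44L were lowest there. KRT7, an epithelial marker outside the list, had 19.7, 1.24 and 1.59 CPM in the same libraries. The cause was not tested. The IFIT1 call in ABC-1 ended without DMSO replicate 1, DMSO replicate 3, CCS1477 replicate 1 or CCS1477 replicate 2, with adjusted p-values of 0.0163 to 0.0808 over all alternatives. IFIT5 was called slightly higher in all lines, with log2 changes of 0.20 in H460, of 0.14 in H2023 and of 0.18 in ABC-1 (SE 0.052, 0.0511 and 0.0587). It had 48.7, 46.9 and 48.7 CPM with CCS1477 and 42.1, 37.8 and 39.4 CPM with DMSO in H460. The H2023 libraries had 41.2, 42.4 and 44.3 CPM with CCS1477 and 37.01, 37.1 and 37.7 CPM with DMSO, and those of ABC-1 38.8, 39.2 and 38.97 CPM with CCS1477 and 35.9, 31.9 and 31.6 CPM with DMSO. The IFIT5 call ended in 5 fits of H2023 that left out a library (each DMSO replicate, CCS1477 replicate 2 and CCS1477 replicate 3) and in 2 of ABC-1 (DMSO replicate 3 and CCS1477 replicate 1), with adjusted p-values up to 0.127 and 0.0729. MX1, a GTPase that blocks influenza and other viruses, was called higher in H2023, at 6.35 ± 0.381 CPM with CCS1477 and 4.39 ± 0.668 CPM with DMSO (log2 change 0.47, SE 0.138, adjusted p 0.0128). It was not called in H460 (log2 change -0.37, SE 0.189, adjusted p 0.13).

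The membrane restriction factors were called lower in every test: 2 of 2 in H460, 3 of 3 in H2023 and 4 of 4 in ABC-1, beside the same shares of all genes (27.9%, 31.9% and 32.6%). IFITM3 had 82.5, 84.1 and 78.5 CPM with CCS1477 and 134, 138 and 138 CPM with DMSO in H460 (log2 change -0.82, SE 0.0406, adjusted p 2.59e-06). H2023 libraries had 76.4, 78.4 and 81.05 CPM with CCS1477 and 96.4, 90.9 and 95.5 CPM with DMSO (log2 change -0.31, SE 0.042, adjusted p 7.44e-05). ABC-1 libraries had 51.3, 52.1 and 53.2 CPM with CCS1477 and 81.5, 76.4 and 82.8 CPM with DMSO (log2 change -0.68, SE 0.0417, adjusted p 8.44e-08). Its groups were apart in each line. IFITM2 had 9.04, 8.23 and 9.15 CPM with CCS1477 and 23.8, 21.6 and 29 CPM with DMSO in ABC-1 (log2 change -1.51, SE 0.106, adjusted p 2.34e-07). In H460 it had 12.2, 11.2 and 10.3 CPM with CCS1477 and 21.7, 20.4 and 23 CPM with DMSO (log2 change -1.01, SE 0.0814, adjusted p 2.79e-05). H2023 libraries had 10.5, 12.6 and 11.9 CPM with CCS1477 and 18.9, 16.8 and 17.3 CPM with DMSO (log2 change -0.64, SE 0.0915, adjusted p 0.000118). Transcript rows of IFITM2 held a further 5.49, 5.21 and 4.14 CPM with CCS1477 and 15.03, 16.8 and 11.9 CPM with DMSO in ABC-1, and also had reads in the other lines. The fall of IFITM2 was larger in ABC-1 than in H460 or H2023, by 0.50 and 0.87 on the log2 scale in the test between lines. IFITM1 had 4.98, 4.26 and 3.19 CPM with CCS1477 and 20.4, 19.4 and 21.1 CPM with DMSO in ABC-1, the largest change of any member there (log2 change -2.30, SE 0.142, adjusted p 8.77e-08). The 3 IFITM genes are neighbours on chromosome 11 (GRCh38: IFITM2 at chr11:307631-315272, IFITM1 at chr11:313506-315272 and IFITM3 at chr11:319669-327537). Annotated exons of IFITM1 and IFITM2 overlap on 1 strand, so reads may have been split among the IFITM genes. How alike their sequences are was not computed. BST2, or tetherin, which holds budding virions at the membrane, averaged 4.43 ± 0.724 CPM with CCS1477 and 7.28 ± 0.664 CPM with DMSO in ABC-1 (adjusted p 0.000896 by limma-trend), and 3.74 ± 0.779 CPM with CCS1477 and 5.24 ± 0.145 CPM with DMSO in H2023 (adjusted p 0.0161; 0.0534 without CCS1477 replicate 1).

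**Figure D4:**
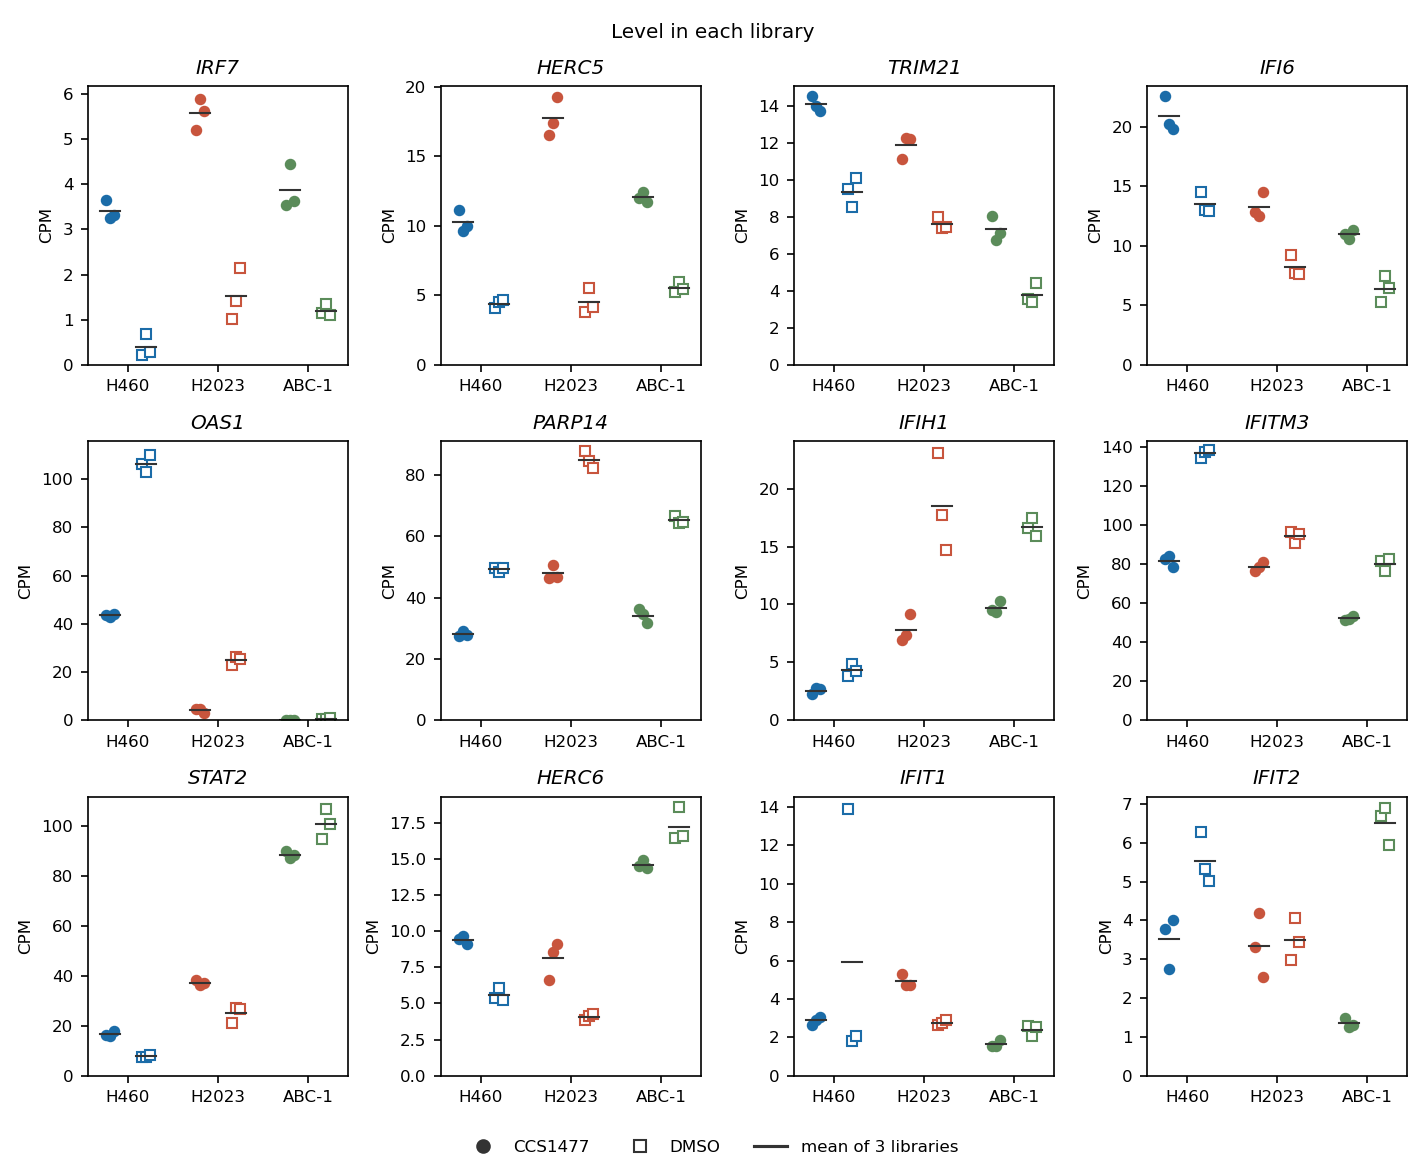
CPM of 12 members in every library; filled circles are CCS1477 and open squares DMSO, side by side within each line, and horizontal lines are means of 3 libraries. IRF7, HERC5, TRIM21 and IFI6 (top row) are higher with CCS1477 in each line, OAS1, PARP14, IFIH1 and IFITM3 (middle row) are lower in each line where they were tested, and STAT2, HERC6, IFIT1 and IFIT2 (bottom row) differ between lines, with 1 high DMSO library of IFIT1 in H460.

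ISG15, USP18, HERC5, HERC6, TRIM21 and TRIM25 were taken as 1 group of ISG15, its enzymes and related ligases. Of these 6, 4 were called higher in H460 and 5 in H2023, with none lower, and in ABC-1 3 were higher and 2 lower. Over all genes tested, H460 had 28.2% called higher, H2023 had 28.6% and ABC-1 had 33.5%. The 4 in H460 were HERC5, HERC6, TRIM21 and TRIM25, while ISG15 and USP18 were not called there. HERC5, the main ligase that joins ISG15 to newly made proteins, had 16.5, 17.4 and 19.3 CPM with CCS1477 and 3.81, 5.53 and 4.16 CPM with DMSO in H2023 (log2 change 1.88, SE 0.14, adjusted p 8.52e-07). In H460 it had 11.1, 9.64 and 9.97 CPM with CCS1477 and 4.05, 4.49 and 4.63 CPM with DMSO (log2 change 1.13, SE 0.101, adjusted p 4.94e-05). The level in ABC-1 was 12.01, 12.4 and 11.7 CPM with CCS1477 and 5.22, 5.94 and 5.45 CPM with DMSO (log2 change 1.03, SE 0.106, adjusted p 6.06e-06). From like untreated levels HERC5 rose furthest in H2023. In the test between lines its response differed by 0.85 for H2023 minus ABC-1 and by -0.76 for H460 minus H2023. The difference of H460 minus ABC-1 did not pass (0.096, SE 0.171, adjusted p 0.67 by limma-trend). HERC6, its neighbour on chromosome 4 (GRCh38: HERC6 at chr4:88378739-88443111 and HERC5 at chr4:88457117-88506163), had 9.44, 9.67 and 9.13 CPM with CCS1477 and 5.403, 6.097 and 5.27 CPM with DMSO in H460 (log2 change 0.67, SE 0.0921, adjusted p 0.00046). The level in H2023 was 6.64, 8.599 and 9.15 CPM with CCS1477 and 3.87, 4.11 and 4.29 CPM with DMSO (log2 change 0.89, SE 0.143, adjusted p 0.000278). In ABC-1 it was lower, at 14.5, 14.9 and 14.4 CPM with CCS1477 and 16.4, 18.6 and 16.6 CPM with DMSO (log2 change -0.29, SE 0.0835, adjusted p 0.00984).

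ISG15 itself averaged 15.5 ± 1.04 CPM with CCS1477 and 10.3 ± 0.704 CPM with DMSO in H2023 (log2 change 0.52, SE 0.0923, adjusted p 0.00055). Its average in ABC-1 was 6.01 ± 0.71 CPM with CCS1477 and 3.34 ± 0.263 CPM with DMSO (log2 change 0.74, SE 0.144, adjusted p 0.000813). In H460 it was not called, at 3.098, 1.64 and 1.93 CPM with CCS1477 and 1.65, 1.57 and 1.42 CPM with DMSO; the highest value is that of the library that stood apart. USP18, the protease that removes ISG15 and a brake on the receptor, was called lower in ABC-1, at 11.2 ± 0.382 CPM with CCS1477 and 14.5 ± 0.0332 CPM with DMSO (log2 change -0.42, SE 0.082, adjusted p 0.00085), and not in H460 or H2023. TRIM21, an intracellular antibody receptor and ubiquitin ligase, had 8.06, 6.75 and 7.14 CPM with CCS1477 and 3.57, 3.39 and 4.42 CPM with DMSO in ABC-1 (log2 change 0.85, SE 0.142, adjusted p 0.000265). Values in H2023 were 11.1, 12.3 and 12.2 CPM with CCS1477 and 7.96, 7.39 and 7.47 CPM with DMSO (log2 change 0.57, SE 0.0939, adjusted p 0.000323). Values in H460 were 14.5, 14 and 13.7 CPM with CCS1477 and 9.49, 8.51 and 10.1 CPM with DMSO (log2 change 0.51, SE 0.0827, adjusted p 0.00107). No CCS1477 library of TRIM21 came down to a DMSO library of its line. TRIM25, a ligase that acts on DDX58, was called higher in H2023, at 145 ± 5.41 CPM with CCS1477 and 93.9 ± 2.59 CPM with DMSO (adjusted p 7.40e-07 by limma-trend). It was also higher in H460, at 169 ± 6.24 CPM with CCS1477 and 135 ± 3.17 CPM with DMSO (adjusted p 0.0011 by limma-trend), and was not called in ABC-1.

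PARP9, PARP12, PARP14 and DTX3L, which handle ADP-ribose and, in the case of the DTX3L and PARP9 pair, act as a joint ubiquitin ligase, were lower in 3 of 4 tests in H460, 4 of 4 in H2023 and 3 of 4 in ABC-1, beside 27.9%, 31.9% and 32.6% of all genes. All but PARP12 are neighbours on chromosome 3 (GRCh38: PARP9 at chr3:122527924-122564577, DTX3L at chr3:122564238-122575203 and PARP14 at chr3:122680618-122730840). PARP14 had 36.1, 34.6 and 31.8 CPM with CCS1477 and 66.6, 64.5 and 64.6 CPM with DMSO in ABC-1 (log2 change -0.99, SE 0.0558, adjusted p 4.03e-08). In H460 it had 27.5, 29.3 and 27.9 CPM with CCS1477 and 49.8, 48.4 and 49.5 CPM with DMSO (log2 change -0.87, SE 0.0467, adjusted p 3.65e-06). H2023 had 46.5, 50.7 and 46.9 CPM with CCS1477 and 87.99, 84.5 and 82.3 CPM with DMSO (log2 change -0.87, SE 0.0493, adjusted p 1.09e-07). The log2 changes of PARP14 in the 3 lines lay within 0.12 of each other, although its untreated level differed between the lines. DTX3L had 17.3, 20.7 and 20.1 CPM with CCS1477 and 34.03, 33.1 and 34.7 CPM with DMSO in H460 (log2 change -0.88, SE 0.0752, adjusted p 3.79e-05). In H2023 the values were 56.3, 60.6 and 53.8 CPM with CCS1477 and 85.01, 86.8 and 86.4 CPM with DMSO (log2 change -0.65, SE 0.0501, adjusted p 1.14e-06). ABC-1 had 49.8, 46.6 and 48.9 CPM with CCS1477 and 60.01, 57.6 and 59.03 CPM with DMSO (log2 change -0.34, SE 0.0469, adjusted p 6.33e-05). The groups of DTX3L were apart in each line, by least in ABC-1. PARP9, its divergent neighbour, had 6.196, 6.85 and 6.12 CPM with CCS1477 and 12.8, 12.3 and 10.8 CPM with DMSO in H460. It had 13.6, 12.8 and 12.6 CPM with CCS1477 and 22.3, 21.9 and 19.6 CPM with DMSO in H2023. In ABC-1 the CPM were 12.3, 16.6 and 14.3 with CCS1477 and 21.3, 20.6 and 22.9 with DMSO. PARP9 was called in each line, with log2 changes of -0.96 in H460, of -0.75 in H2023 and of -0.64 in ABC-1 (SE 0.0955, 0.078 and 0.0997). Exons of PARP9 and DTX3L overlap on opposite strands, and no source used here says whether counting used strand. PARP12 was called lower in H2023 (log2 change -0.67, SE 0.115, adjusted p 0.000442). It was not called in H460 (log2 change -0.12, SE 0.164, adjusted p 0.572) or ABC-1 (log2 change -0.50, SE 0.279, adjusted p 0.135). Over all alternatives the log2 change ran from -0.39 to 0.046 in H460 and from -0.83 to -0.18 in ABC-1, with adjusted p-values up to 0.93 and 0.5. With reads of its transcript rows added, a setting chosen after seeing the data, it was called lower in both lines (adjusted p 0.00166 and 0.0271 by limma-trend). Those rows were uneven, at 0.179, 4.13 and 0.186 CPM in the CCS1477 libraries of H460. In ABC-1 it was also called without CCS1477 replicate 1 (adjusted p 0.0076).

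Among the remaining members IFI44L fell furthest. In H460 it had 3.78, 3.84 and 4.35 CPM with CCS1477 and 20.1, 21.9 and 21.3 CPM with DMSO (log2 change -2.44, SE 0.0889, adjusted p 6.34e-07). H2023 had 0, 0.368 and 0.849 CPM with CCS1477 and 4.77, 4.11 and 3.9 CPM with DMSO. The log2 change there of -3.06 (adjusted p 0.00011 by limma-trend) rests on the constant added to such low values. It ran from -5.12 to -2.49 over the alternatives in which IFI44L was tested. In H2023 IFI44L reached 1 CPM only in DMSO libraries, so its entry to the test depended on them. Its neighbour IFI44 averaged 6.16 ± 0.856 CPM with CCS1477 and 9.55 ± 0.0802 CPM with DMSO in H460 (log2 change -0.70, SE 0.108, adjusted p 0.000834). ISG20, a 3′ to 5′ exonuclease of RNA, had 17.5, 13.2 and 16.5 CPM with CCS1477 and 31.8, 29.4 and 33.1 CPM with DMSO in H460 (log2 change -1.07, SE 0.106, adjusted p 7.91e-05). In H2023 the levels were 3.52, 4.24 and 3.94 CPM with CCS1477 and 8.86, 8.05 and 8.25 CPM with DMSO (log2 change -1.11, SE 0.122, adjusted p 1.63e-05). In ABC-1 it was not called, at 0.991 ± 0.62 CPM with CCS1477 and 1.38 ± 0.31 CPM with DMSO.

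IFI6, a small membrane protein linked to resistance to apoptosis and to flaviviruses, rose in all lines. It had 22.6, 20.3 and 19.9 CPM with CCS1477 and 14.6, 13 and 12.9 CPM with DMSO in H460 (log2 change 0.55, SE 0.0772, adjusted p 0.000495). In H2023 it had 12.8, 12.5 and 14.6 CPM with CCS1477 and 9.197, 7.72 and 7.67 CPM with DMSO (log2 change 0.63, SE 0.105, adjusted p 0.000362). ABC-1 showed 10.98, 10.6 and 11.3 CPM with CCS1477 and 5.29, 7.47 and 6.42 CPM with DMSO (log2 change 0.71, SE 0.135, adjusted p 0.000715). The groups did not overlap in any line. SP110 was higher in ABC-1 and H2023 (log2 changes 0.69 and 0.33, SE 0.12 and 0.0853), and SP100, a defining protein of the nuclear bodies that contain PML, was lower in H460 (log2 change -0.32, SE 0.0568, adjusted p 0.00174) and slightly higher in ABC-1 (log2 change 0.21, SE 0.0784, adjusted p 0.0349). The SP100 call in ABC-1 ended without DMSO replicate 1 or any 1 of the CCS1477 replicates, with adjusted p-values up to 0.112. IFI35 was called in no line. Annotated exons of IRF9 and TRIM25 overlap those of AL136295.5 and C17orf67 on the same strand, and exons of IRF1, SP110, IFIT2 and TRIM25 overlap those of AC116366.3, SP140, LIPA and DGKE on the opposite strand. Exons of IFITM3, ISG15, MX1, OAS1 and SP100 overlap those of a noncoding RNA or pseudogene. Reads of all these members may therefore include some from the other gene.

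Whether the lines responded differently was tested in a single limma-trend fit of all 18 libraries, for the 27 members tested in every line. The response of H460 differed from that of ABC-1 for 12 members (50.6% of 11757 genes differed), that of H2023 from that of ABC-1 for 12 (44.8% of genes), and that of H460 from that of H2023 for 10 (30.3% of genes). Each line enters 2 of these 3 comparisons, so they are not independent. The largest difference was that of IFIT2, whose log2 change of -0.12 in H2023 lay 2.01 above the -2.13 of ABC-1 (SE 0.253, adjusted p 4.04e-06). STAT2 responded more strongly in H460 than in ABC-1 by 1.25 on the log2 scale (SE 0.119, adjusted p 9.14e-08) and in H2023 than in ABC-1 by 0.77 (SE 0.119, adjusted p 3.99e-05). HERC6 also had higher responses in H460 and in H2023 than in ABC-1, with differences of 0.96 between H460 and ABC-1 and 1.18 between H2023 and ABC-1 (SE 0.153 each, adjusted p 4.63e-05 and 5.82e-06). TRIM25 and USP18 likewise had higher responses in H460 and in H2023 than in ABC-1, and SP110 lower ones in both. For IFIT1 the response of H2023 lay 1.25 above that of ABC-1 on the log2 scale, which did not pass in the fit of 18 libraries (adjusted p 0.132) and did in the fit of the 12 libraries of those lines (adjusted p 0.000218). Members not tested in ABC-1 could be compared in the 12 libraries of the other two lines. The response of OAS1 in H460 lay 1.26 above that in H2023 (log2 scale, SE 0.164, adjusted p 7.98e-05), so OAS1 fell further in H2023. The responses of MX1 (difference -0.84, SE 0.219, adjusted p 0.0111) and IFI16 (difference -1.14, SE 0.184, adjusted p 0.000448) were lower in H460 than in H2023, and that of IFI16 rests on values near 1 CPM in H2023. In that line IFI16 was tested only through its CCS1477 libraries. The differences of IFI44L and IRF9 did not pass (adjusted p 0.394 and 0.244), nor did that of BST2 between H2023 and ABC-1 (adjusted p 0.454).

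Other genes of the interferon pathway were read from the same fits as a list of 64. None of its 8 interferon genes was tested; IFNE, the one with a row, stood under 1 CPM in H2023. Of the tested genes of the list, 14 of 47 were called higher and 16 lower in H460, 17 of 46 higher and 14 lower in H2023, and 20 of 43 higher and 15 lower in ABC-1. Over all genes tested, 28.2% were higher and 27.9% lower in H460, 28.6% and 31.9% in H2023, and 33.5% and 32.6% in ABC-1, so several of these shares lie near those of all genes. Receptors and their kinases were 6 higher and 2 lower of 9 in H460, 4 higher and none lower of 9 in H2023, and 7 higher and none lower of 9 in ABC-1. JAK1, the kinase shared by the receptors of all interferon types, averaged 118 ± 2.43 CPM with CCS1477 and 51.4 ± 1.75 CPM with DMSO in ABC-1 (log2 change 1.14, SE 0.0398, adjusted p 8.65e-10). In H460 it averaged 150.3 ± 2.65 CPM with CCS1477 and 99.6 ± 2.203 CPM with DMSO (log2 change 0.52, SE 0.0364, adjusted p 1.44e-05), and in H2023 it was not called (log2 change 0.07, SE 0.0358, adjusted p 0.108). In H460 IFNGR2, a chain of the interferon gamma receptor, was lower and PIAS1, an inhibitor of cytokine signalling, higher (log2 changes -0.67 and 0.50). In ABC-1 the calls were opposite, with IFNGR2 higher and PIAS1 lower (log2 changes 0.53 and -0.32), and in H2023 neither was called.

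STAT3, a factor of cytokine signalling, was higher in H460 (log2 change 0.94, SE 0.0396, adjusted p 1.15e-06), ABC-1 (log2 change 0.98, SE 0.0431, adjusted p 5.40e-09) and H2023 (log2 change 0.24, SE 0.0319, adjusted p 6.17e-05). SOCS1, a feedback inhibitor of JAK kinases, was low but higher in H2023, at 2.76 ± 0.0768 CPM with CCS1477 and 0.444 ± 0.0516 CPM with DMSO (log2 change 2.08, SE 0.21, adjusted p 8.76e-06). It reached 1 CPM there only in CCS1477 libraries, so its entry to the test depended on them.

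Effectors outside the 39 moved both ways. SAMHD1, a hydrolase of deoxynucleotides, averaged 45.3 ± 3.01 CPM with CCS1477 and 17.99 ± 1.64 CPM with DMSO in H2023 (log2 change 1.27, SE 0.0772, adjusted p 1.90e-07). In the same line SAMD9 averaged 62.9 ± 0.897 CPM with CCS1477 and 43.3 ± 0.966 CPM with DMSO (log2 change 0.48, SE 0.045, adjusted p 4.64e-06), and it was not called in the other lines. EIF2AK2, the kinase PKR activated by double-stranded RNA, and CGAS, the sensor of cytosolic DNA, were lower in H2023 (log2 changes -0.57 and -0.81), as they were in H460 (log2 changes -0.57 and -0.89). In ABC-1 TLR3, an endosomal sensor of double-stranded RNA, averaged 3.76 ± 0.598 CPM with CCS1477 and 12.1 ± 0.574 CPM with DMSO (log2 change -1.68, SE 0.134, adjusted p 6.91e-07); it was also lower in H460 (log2 change -1.23) and not called in H2023. In ABC-1 PLSCR1 averaged 27.2 ± 2.005 CPM with CCS1477 and 60.5 ± 4.57 CPM with DMSO (log2 change -1.21, SE 0.0733, adjusted p 7.41e-08), and LGALS3BP averaged 106 ± 2.66 CPM with CCS1477 and 149 ± 1.36 CPM with DMSO (log2 change -0.55, SE 0.0351, adjusted p 1.07e-07). PNPT1, a mitochondrial RNA-degrading enzyme, was lower in H460 (log2 change -0.99, SE 0.0709, adjusted p 1.59e-05).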

How the data were processed

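Total RNA of H460, H2023 and ABC-1 cells was made into directional libraries and sequenced as paired reads, per the labels' protocols; the build was GRCh38, per the submitters' processing notes, and no source used here names the aligner or the counting program. The authors deposited log2 values, 1 table per line, and the values show log2 of whole reads divided by a factor per library plus 4; rows without reads hold 2. The reads were recovered from the deposited log2 values: all values of up to 1000 reads came out whole within 0.1. The columns of the tables bear the same names, so the line was taken from the table. Gene rows were used (16424 in H460, 18140 in H2023, 16910 in ABC-1); transcript rows held 9.19 to 10.7% of the reads. CPM use all recovered reads, and lengths are unions of GENCODE 29 exons.

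Changes were tested with limma-trend (limma 3.58.1, R 4.3.3) on the deposited values, 3 CCS1477 against 3 DMSO libraries, where 3 or more of 6 libraries reached 1 CPM, with Benjamini-Hochberg adjustment; every adjusted p comes from it unless another fit is named. The script was tested on simulated data. Since values were log2 and not counts, the design's count test gave way to this one. Differences between lines came from 1 fit of 18 libraries. Alternatives were other scalings, constants of 1 and 0.1, limma-voom on recovered reads, other filters, a replicate block, a fold limit, each library left out, and, chosen after seeing the data, transcript rows added to their genes.

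Members and lists were chosen with earlier results of these data known. Values per library are given for members called in all 3 lines and those with the largest changes in each line, where the higher group averaged 5 CPM or more; further pathway genes are those with the 5 smallest p per line, of which some are not reported here. IRF7, IFIT1, IFI44L in H2023 and library values of other low or uncalled members were added after their values were seen. Libraries with the same replicate number did not deviate together (correlations of -0.104 to 0.0973), so the main fits have no block. Counting errors given here treat reads as independent molecules, which reads lacking molecular identifiers are not, and cover no other error. Promoters came from RefSeq (GRCh38.p14).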

Additional observations from a re-analysis of the deposited data

Results flagged for a closer look

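These members are listed because the response to CCS1477 differed between 2 lines in the limma-trend fit of 18 libraries (adjusted p under 0.05). Values are differences of log2 fold changes, the first line minus the second. The shares of all genes that differed stand with the counts in the report. IRF7 in H460 and IFIT3 in ABC-1 were tested only through the group in which they were higher. In fits of the 12 libraries of 2 lines alone, the differences of OAS3 between H460 and ABC-1 (adjusted p 0.0886) and of IRF7 and DTX3L between H460 and H2023 (adjusted p 0.0749 and 0.0779) did not pass, while those of IFITM2 and SP110 between H460 and H2023 did (adjusted p 0.0377 and 0.049).

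Between H460 and ABC-1 the response was higher in H460 by 1.41 for IFIT2, 1.32 for IRF7, 1.25 for STAT2, 0.96 for HERC6, 0.50 for IFITM2, 0.49 for USP18, 0.36 for OAS3 and 0.19 for TRIM25. It was lower in H460 for SP110 (-0.62), DTX3L (-0.54), SP100 (-0.53) and IFITM3 (-0.14).

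Between H2023 and ABC-1 it was higher in H2023 by 2.01 for IFIT2, 1.64 for IFIT3, 1.18 for HERC6, 0.87 for IFITM2, 0.85 for HERC5, 0.77 for STAT2, 0.58 for USP18, 0.51 for TRIM25 and 0.36 for IFITM3. It was lower in H2023 for IRF1 (-0.83), SP110 (-0.35) and DTX3L (-0.31).

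Between H460 and H2023 it was higher in H460 by 1.05 for IRF7, 0.72 for OAS3, 0.57 for IRF1 and 0.49 for STAT2. It was lower in H460 for IFIT3 (-1.15), HERC5 (-0.76), IFITM3 (-0.50), SP100 (-0.36), TRIM25 (-0.32) and DTX3L (-0.23). In each of these lines IFITM2, IFITM3, OAS3 and DTX3L were called lower and IRF7 and HERC5 higher, so for them the difference is 1 of size; for STAT2 and HERC6 the calls in ABC-1 have the opposite sign to those in the other lines.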

How the results depend on the processing

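With a further limit of an absolute log2 change of at least 1, members higher and lower were 3 and 5 in H460, 2 and 5 in H2023 and 2 and 4 in ABC-1, all genes 545 and 550, 635 and 752, and 820 and 1112, and the pathway list 1 and 3, 2 and 1, and 2 and 3. Leaving out each library, members higher and lower ranged over 8 to 10 and 16 to 18 in H460, 11 to 12 and 12 to 13 in H2023, and 7 to 9 and 14 to 16 in ABC-1; members whose response differed ranged over 10 to 15 (H460 and ABC-1), 11 to 13 (H2023 and ABC-1) and 8 to 11 (H460 and H2023). The pathway list in H460 ranged over 9 to 13 higher, with 9 without DMSO replicate 1 or 2. Among values called under a setting, only IFIT1 in H460 turned its direction: it ranged from -0.95 to 0.48 with a library left out, and was 0.48 without DMSO replicate 1. With the replicate block, members higher and lower were 9 and 17 in H460, 12 and 13 in H2023 and 8 and 16 in ABC-1; the block ended the calls of IFI16 in H2023 and SP100 in ABC-1, and the constant of 0.1 that of IFI16 in H2023. Scaling by library totals moved the median of all genes by 0.0517 to 0.0725. Adding transcript rows brought calls of lower PARP12 in H460 (-0.39) and ABC-1 (-0.30), and of lower IRF1 in H2023 (-0.16), and made the response of IFIH1 in H2023 differ from that in ABC-1 (-0.49) and that in H460 from that in H2023 (0.52). For single members, 899 of 962 values under other settings and 541 of 564 with a library left out kept their direction and their side of the threshold; the cause of the others was not tested. Depth limits members near 1 CPM, such as IFI16 in H2023, OAS2 and IRF9.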

Other observations

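Outside the 39 members, both chains of the type I interferon receptor were higher with CCS1477 in all 3 lines; they were picked out after their values were seen. IFNAR2 averaged 19.6 ± 1.35 CPM with CCS1477 and 9.92 ± 0.751 CPM with DMSO in ABC-1, 36.7 ± 1.33 CPM with CCS1477 and 24.9 ± 0.609 CPM with DMSO in H2023, and 17.9 ± 0.996 CPM with CCS1477 and 12.9 ± 0.37 CPM with DMSO in H460 (SD, n = 3 each). Its log2 changes were 0.90, 0.50 and 0.40 in these lines, and those of IFNAR1 were 0.23, 0.23 and 0.21, all past the threshold in limma-trend. SOCS1 moved in opposite directions, with a log2 change of 1.05 in H460 and 2.08 in H2023, against -0.67 in ABC-1. In H460 and H2023 it reached 1 CPM only in CCS1477 libraries. SAMHD1 was called higher in all 3 lines, while PLSCR1, PNPT1, LGALS3BP, EIF2AK2 and IKBKE were called lower in all 3.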
